A study of Sus scrofa with 30 samples.

Results

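Normal teats of 5 pigs without inverted teats were each divided into an epithelial and a mesenchymal piece, and gene expression was compared between the pieces of the same animal. These are 10 of the 30 arrays of the series, chosen by their labels alone (non-affected animal, normal teat) and paired by animal number. The remaining 20 arrays come from 5 animals with inverted teats, whose normal teats are used here as a second, independent set of 5 pairs. All animals were commercial pigs around puberty, sampled at slaughter at a mean end weight of 110 kg. Animals 950, 1040 and 1058 were Large White x German Landrace, animal 957 was German Landrace, and animal 1109 was Pietrain x (Large White x German Landrace). The labels name no treatment, and how the pieces were separated is not given in the sources used here.

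A pig teat is a cone of skin around the ducts that carry milk from the gland to the tip. Ducts and gland are lined by luminal epithelial cells, which are held together by desmosomes and tight junctions, carry the simple keratins 8, 18 and 19, and secrete milk proteins and antimicrobial factors. The outer skin carries a stratified, keratinised epidermis. Beneath both lies a mesenchymal core of collagen, fibroblasts, smooth muscle, vessels and fat. Signals between epithelium and mesenchyme, among them parathyroid hormone-like hormone (PTHLH) from the epithelium and its receptor PTH1R in the mesenchyme, shape the nipple during development.

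Values are log2 levels of Affymetrix Porcine Genome Array probe sets, and every difference is epithelium minus mesenchyme within an animal. The medians of these 10 arrays lay between 5.706 and 6.006. The median correlation of each of them with the other arrays of its tissue in the series was between 0.887 and 0.938. A probe set was tested with limma where it exceeded the 30th percentile of its array in at least 5 of the 10 arrays, with the animal as a block, and was called where the Benjamini-Hochberg adjusted p was below 0.05. A gene is represented by its brightest probe set. Counts of genes and lists use that probe set alone, so they can miss a call at another probe set of the gene. With 5 animals, precision is limited by their number.

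Of 17138 tested probe sets, 804 (4.69%) were called higher in epithelium and 1678 (9.79%) higher in mesenchyme. Among the 5926 tested genes with 1 symbol, 171 (2.89%) were called higher in epithelium and 877 (14.8%) higher in mesenchyme, and the median difference over all of these genes was -0.14. The differences were small for most of the called probe sets. The median difference was 0.908 for those higher in epithelium and -0.862 for those higher in mesenchyme, and 33 and 120 of them exceeded 2 on the log2 scale. The number of calls depended on single animals. Without animal 957 it was 1, with 2210 of the 2482 at an adjusted p below 0.10, without animal 1109 it was 51 and without animal 1040 it was 250, whereas it was 1471 without animal 1058 and 2328 without animal 950. All 2482 called probe sets kept their sign in each of these fits. For most of them this was fixed in advance. Of the 804 and 1678, 725 and 1635 had the same sign in all 5 animals and cannot turn when 1 is left out. Without the block for the animal, 321 and 1096 probe sets passed. Quantile normalization turned the split, with 1925 called higher in epithelium and 1315 higher in mesenchyme, and median centring gave 1155 and 1548.

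The labels were checked against the markers of the tissues. The mesenchymal pieces of animals 950 and 957 carried luminal markers at epithelial levels. The mean level of 13 measured luminal keratins and luminal markers was 8.22, 8.77, 8.44, 7.79 and 8.72 in the epithelial pieces of animals 950, 957, 1040, 1058 and 1109, and 7.97, 9.03, 6.93, 4.65 and 6.93 in the mesenchymal pieces, always in this order of animals. The mesenchymal piece of animal 1040 was the piece with little skeletal muscle: the mean of 33 sarcomere genes was 3.36 there, against 8.44 to 10.81 in the mesenchymal pieces of the other animals and 3.95 to 6.58 in the epithelial pieces. The epithelial piece of animal 1058 held the most adipocyte transcript of the epithelial pieces, with a list mean of 8.69 against 7.22 to 7.74. The list means of fibroblast and matrix genes overlapped, at 9.66 to 10.26 in epithelial and 9.59 to 10.11 in mesenchymal pieces, and the median difference within an animal was above 0 in each (0.08, 0.06, 0.33, 0.22 and 0.36). In tissue pieces, fewer cells of a type and less RNA per cell cannot be told apart.

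**Figure D1:**
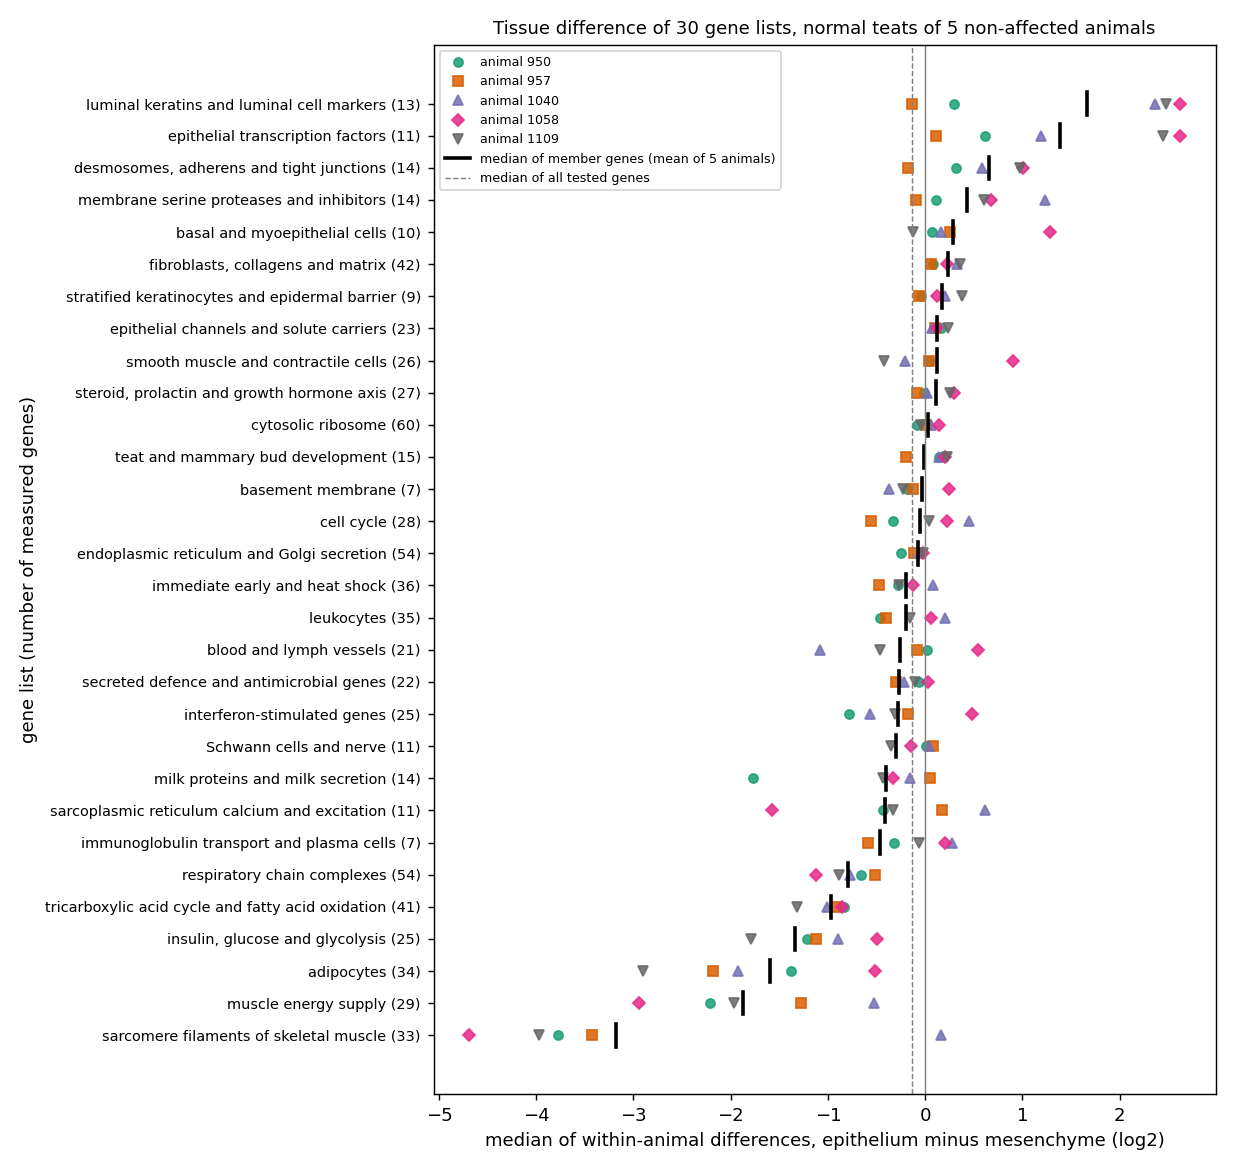
Difference between epithelial and mesenchymal tissue (log2, x axis) for 30 gene lists (y axis, with the number of measured genes). Symbols give the median over the genes of a list in 1 animal, black bars the median over genes of the mean difference of 5 animals, and the dashed line the median of all tested genes, -0.14. The luminal list lies near 0 in animals 950 and 957 and above 2 in the other animals, and the sarcomere list lies near 0 in animal 1040 and below -3 in the other animals.

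Luminal epithelial genes had the highest median difference of the 30 lists, 1.66, and 3 of the 13 measured genes were called higher in epithelium, which is 23.1% beside 2.89% of all tested genes. FOXA1, a transcription factor that opens chromatin for steroid receptors in luminal cells, had levels of 9.03, 9.5, 8.84, 7.68 and 9.35 in epithelium and 8.42, 9.08, 5.89, 2.35 and 5.51 in mesenchyme. Its level was higher in the epithelial piece of every animal, by less than 1 in animals 950 and 957 and by more than 2 in the others. The mean difference was 2.63 ± 0.70 (SE, n = 5 animals, limma adjusted p = 0.047). CLDN3, a tight junction claudin, differed by 1.72 ± 0.44 (adjusted p = 0.043), and GATA3, which maintains luminal identity, by 1.39 ± 0.38 (adjusted p = 0.0496). The 3 other probe sets of GATA3 differed by 0.998 to 1.04 without passing. CLDN3 exceeded the 30th percentile of its array in 2 of the 5 mesenchymal pieces, so the size of its difference is uncertain. PROM1, a membrane protein of luminal progenitors, was called the other way, by -1.15 ± 0.31 (adjusted p = 0.049), lower in the epithelial piece of 4 of 5 animals. These calls in epithelium were lost when animal 957, 1040, 1058 or 1109 was left out and in the fit without the animal block. Without both animals 950 and 957, 6 of the 13 genes were called higher in epithelium.

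The defining keratins did not pass. KRT19 had levels of 10.79, 11.41, 11.22, 10.03 and 11.73 in epithelium and 10.48, 11.21, 8.36, 1.61 and 7.8 in mesenchyme. The epithelial values lay within 2 units of each other, while the mesenchymal values ran from 1.61 to 11.21. The mean difference of 3.15 ± 1.101 gave an adjusted p of 0.09 (limma, n = 5 animals). KRT8, its partner KRT18, the cell surface adhesion molecule EPCAM and the adherens junction cadherin CDH1 had mean differences of 2.39, 2.68, 2.83 and 2.51, with adjusted p between 0.062 and 0.10. KRT8 was lower in the epithelial piece of animal 957, at 10.59 against 11.16, and higher in that of animal 1058, at 9.66 against 5.21. The same direction in animal 957 was seen for KRT18, EPCAM and CDH1.

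**Figure D2:**
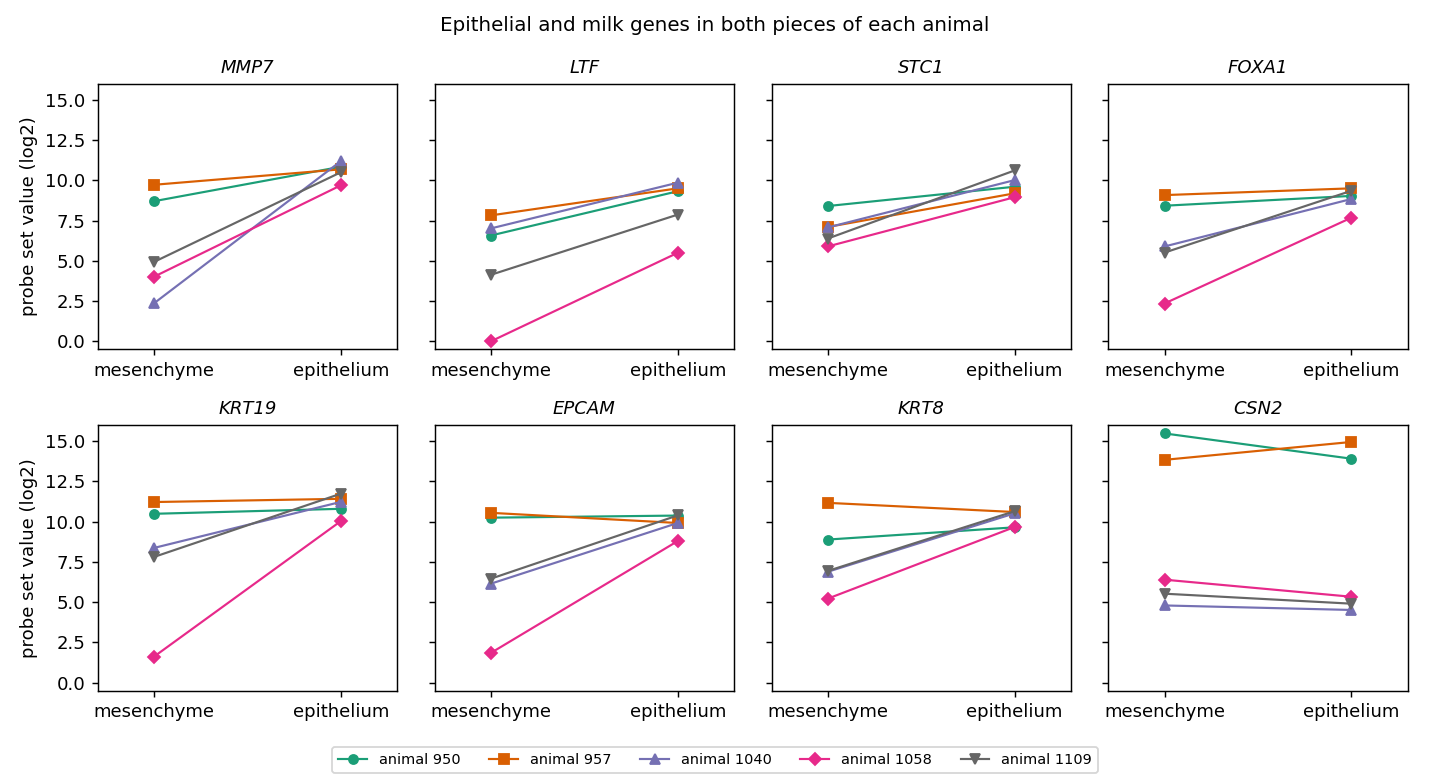
Levels (log2, y axis) of 8 genes in the mesenchymal and epithelial piece of each of the 5 non-affected animals, joined by a line per animal. MMP7, LTF, STC1 and FOXA1 rise towards epithelium in every animal, KRT19, EPCAM and KRT8 are nearly level or lower in animals 950 and 957, and CSN2 separates the animals rather than the tissues.

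Epithelial transcription factors gave 4 genes of 11 called higher in epithelium, or 36.4% beside 2.89% of all genes. Their median difference was 1.39, and none was called higher in mesenchyme. EHF and ELF3, ETS factors of glandular and barrier epithelia, differed by 1.97 ± 0.42 (SE, limma adjusted p = 0.028) and 1.21 ± 0.30 (adjusted p = 0.042), each in 5 of 5 animals. A second probe set of ELF3 differed by 0.04 (adjusted p = 0.881), while that of EHF was also called, at 0.79. EHF was at 6.92, 6.83, 6.3, 5.46 and 6.45 in epithelium and 6.11, 6.35, 3.09, 2.97 and 3.6 in mesenchyme, so that the groups overlapped through animals 950 and 957. It exceeded the 30th percentile of its array in 2 of the 5 mesenchymal pieces, so the size of its difference is uncertain. FOXA1 and GATA3 are the other called members. ESRP1, which sets epithelial splicing, and TFAP2C, an activator of luminal genes, had differences of 2.21 and 2.41 and did not pass, at adjusted p of 0.052 and 0.055. None of the 11 genes was called without animal 957, 1040, 1058 or 1109 or without the animal block, and 7 were called without both animals 950 and 957.

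Junction genes followed the same animals. Of 14 measured members, 2 were called higher in epithelium, 14.3% beside 2.89% of all genes, and the median was 0.66. DSP, the plaque protein that ties desmosomes to keratin filaments, had levels of 9.24, 9.1, 9.13, 7.64 and 9.16 in epithelium and 8.47, 8.87, 6.37, 3.5 and 5.27 in mesenchyme, a difference of 2.36 ± 0.59 (SE, adjusted p = 0.042). The other called member was CLDN3, and PERP, a desmosomal tetraspan protein, differed by 1.83 without passing (adjusted p = 0.055). CLDN11, a claudin outside that list, differed by 2.24 ± 0.33 (adjusted p = 0.017). Its levels were 8.31, 9.22, 9.41, 6.96 and 9.31 in epithelium against 6.99, 7.0, 7.39, 5.13 and 5.5 in mesenchyme. Both junction list calls were lost without animal 957, 1040, 1058 or 1109, and with no animal block.

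Secreted proteins gave the largest single differences towards epithelium. MMP7, a secreted protease that processes antimicrobial peptides and matrix, had levels of 10.84, 10.68, 11.19, 9.69 and 10.5 in epithelium and 8.7, 9.72, 2.36, 4.01 and 4.93 in mesenchyme. Epithelial values were high in every animal, the mesenchymal pieces of animals 950 and 957 came close to them, and that of animal 957 exceeded the lowest. The difference was 4.63 ± 1.03 (SE, n = 5, limma adjusted p = 0.031). WFDC2, a whey acidic protein domain secreted by ducts, differed by 4.05 ± 0.94 (adjusted p = 0.035), and was at 0 in the mesenchymal piece of animal 1058. A second probe set of WFDC2, at 5.15 and 5.01, differed by 0.14 (adjusted p = 0.671). MMP7 and WFDC2 were the 2 called genes of 14 proteases and inhibitors (14.3%, beside 2.89% of all genes), whose median was 0.43. Each exceeded the 30th percentile of its array in 3 of the 5 mesenchymal pieces, so the sizes of both differences are uncertain. ST14 and SPINT2, a membrane protease and its inhibitor, differed by 2.15 and 1.69 at adjusted p of 0.074 and 0.058.

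NPG4, a protegrin, is an antimicrobial peptide of pigs. It had levels of 7.52, 8.41, 7.9, 6.81 and 9.11 in epithelium and 5.51, 5.88, 2.64, 2.87 and 2.49 in mesenchyme, with no overlap. The difference was 4.07 ± 0.63 (SE, adjusted p = 0.018), from the 1 of its 6 probe sets that was tested. In 3 of the 5 mesenchymal pieces NPG4 lay below the 30th percentile of the array, so the size is uncertain. LTF, the iron-binding lactoferrin of milk and secretions, was at 9.32, 9.5, 9.85, 5.5 and 7.87 in epithelium and at 6.57, 7.82, 7.01, 0 and 4.13 in mesenchyme. It was higher in epithelium in every animal by 3.31 ± 0.48 (adjusted p = 0.017), although animal 1058 was low in both pieces. NPG4, LTF and WFDC2 were the 3 of 22 defence genes called higher in epithelium. This was 13.6%, beside 2.89% of all genes, while the list median was -0.27. PGLYRP2, a peptidoglycan-degrading amidase, was called higher in mesenchyme by -1.89 ± 0.29 (adjusted p = 0.018). PIGR, which carries IgA across epithelium, differed by 1.64 ± 0.53 without passing (adjusted p = 0.073). LTF and NPG4 were among 12 genes with the largest called differences, which also held STC1, a secreted glycoprotein of calcium and phosphate balance, at 2.70 ± 0.39 with no overlap of the groups. The others not yet named were CRISP2 (2.29), the adhesion molecule ALCAM (2.24), the ion pump regulator FXYD3 (2.18) and the prostaglandin F receptor PTGFR (2.11). LTF and FXYD3 exceeded the 30th percentile of the array in 3 of the 5 mesenchymal pieces, and CRISP2 in 2, so the sizes of their differences are uncertain. Without animal 957 none of the 12 genes passed, with limma adjusted p from 0.056 to 0.07. MMP7 and WFDC2 were also lost without animal 1040, 1058 or 1109, NPG4 and STC1 without animal 1040 or 1109, and LTF without animal 1109, whose adjusted p was 0.15 with no animal block.

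Milk genes differed between animals more than between tissues. CSN2, beta-casein, was at 13.9, 14.94, 4.51, 5.33 and 4.9 in epithelium and at 15.47, 13.83, 4.79, 6.39 and 5.52 in mesenchyme. Both pieces of animals 950 and 957 were high and all other pieces were low, and the tissue difference of -0.48 ± 0.35 did not pass (limma adjusted p = 0.36). CSN1S1, alpha-S1-casein, had the same pattern, at 8.54 and 10.85 in the epithelial pieces of animals 950 and 957, 11.23 and 10.15 in their mesenchymal pieces, and 2.5 to 6.31 elsewhere. CSN3, kappa-casein, was at 6.85 and 8.95, then 9.52 and 8.51, and at 0 to 5.1 elsewhere. The whey protein gene LALBA lay between 4.49 and 5.84 in all 10 pieces. Of 14 milk genes LTF was called higher in epithelium and CIDEA, a lipid droplet protein that is also an adipocyte gene, higher in mesenchyme (-2.59 ± 0.49, adjusted p = 0.023). Each is 7.14% of the list, beside 2.89% and 14.8% of all genes. The casein-high animals are the same 2 whose mesenchymal pieces carried luminal keratins. Whether secretory tissue was present in those pieces was not tested.

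Basal and epidermal genes did not separate the pieces. None of 10 basal and myoepithelial genes (median 0.29) and none of 9 stratified keratinocyte genes (median 0.17) passed with limma at the brightest probe set. Another probe set of DST, a basal gene, was called higher in epithelium, by 0.86 (limma adjusted p = 0.035). At an unadjusted p below 0.05, 2 and 0 were higher in epithelium and 0 and 2 higher in mesenchyme. KRT10, a suprabasal epidermal keratin, had levels of 6.96, 7.14, 7.25, 6.42 and 7.73 in epithelium and 7.02, 7.2, 7.06, 6.0 and 7.1 in mesenchyme. KRT1, its partner, lay between 3.7 and 4.83 in all pieces and was below the filter. The list means of the 9 genes overlapped, at 5.8 to 6.22 in epithelial and 5.82 to 6.27 in mesenchymal pieces. ACTA2, the smooth muscle actin that myoepithelial cells also carry, was at 12.26 to 12.65 in epithelium and 11.26 to 12.54 in mesenchyme.

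Transport and secretory machinery changed little. Of 23 epithelial channels and carriers only CA12, a membrane carbonic anhydrase, was called (0.81 ± 0.20, adjusted p = 0.039), 4.35% beside 2.89% of all genes. AQP5, the water channel of secretory epithelia, and SLC44A4, a choline transporter, had the highest differences of that list, 1.64 each, without passing. Of 54 genes of the endoplasmic reticulum and Golgi, 4 were called higher in mesenchyme and none higher in epithelium, 7.41% beside 14.8% of all genes, and with quantile normalization 1 and 8. At an unadjusted p below 0.05 it was 11 and 5. SAR1B, the coat GTPase of export from the endoplasmic reticulum, differed by -1.08 ± 0.21 (adjusted p = 0.025). A probe set of SEC63 other than its brightest was called higher in epithelium, by 0.56 (limma adjusted p = 0.049). Of 7 immunoglobulin transport genes 1 (14.3%, near the 14.8% of all genes) was called higher in mesenchyme. This was FCGRT, the neonatal Fc receptor, at -0.63 ± 0.15 (adjusted p = 0.035). CCL28, the chemokine that draws IgA plasma cells to mucosa, had a difference of 2.40 that did not pass (adjusted p = 0.12).

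Hormone axis genes were called in both directions. ESR1, the oestrogen receptor alpha, had levels of 7.46, 9.24, 8.87, 7.88 and 8.94 in epithelium and 6.98, 8.96, 6.05, 6.55 and 6.58 in mesenchyme. It was higher in epithelium in 5 of 5 animals by 1.45 ± 0.38 (SE, adjusted p = 0.046). JAK2, the kinase of prolactin and growth hormone receptors, was higher by 0.94 ± 0.22 (adjusted p = 0.036), and HSD11B2, which inactivates cortisol, by 0.50 ± 0.13 (adjusted p = 0.044). Called higher in mesenchyme were GHR, the growth hormone receptor (-1.63 ± 0.37, adjusted p = 0.032), its effectors STAT5B (-0.94 ± 0.19) and STAT5A (-0.51 ± 0.13), and the steroid or fatty acid dehydrogenases HSD17B12 (-1.55 ± 0.28) and HSD17B4 (-1.58 ± 0.30). The 27 measured genes of this axis thus held 3 calls in epithelium (11.1%, beside 2.89% of all genes) and 5 in mesenchyme (18.5%, near the 14.8% of all genes), with a median of 0.11, and 7 and 4 with quantile normalization. The 3 calls in epithelium were lost without animal 957, 1040, 1058 or 1109 and with no animal block, and the 5 in mesenchyme without animal 957, 1040 or 1109. A second probe set of JAK2 differed by 0.70 without passing (adjusted p = 0.101). The progesterone receptor PGR and the prolactin receptor PRLR were below the filter on every array. AREG, the EGF-family ligand that oestrogen induces in mammary ducts, had a difference of 3.17 ± 0.93 without passing (adjusted p = 0.059).

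Of 15 teat bud genes 3 were called, 1 in epithelium (6.67%, beside 2.89% of all genes) and 2 in mesenchyme (13.3%, near the 14.8% of all genes). The median was -0.01, and 4 and 2 had an unadjusted p below 0.05. PTHLH was at 6.95, 7.56, 7.68, 6.32 and 7.28 in epithelium and 6.51, 8.15, 5.25, 4.64 and 4.96 in mesenchyme, a difference of 1.25 ± 0.44 that did not pass (adjusted p = 0.09). Its receptor PTH1R differed by -0.10 ± 0.31 (adjusted p = 0.84), and the homeobox gene MSX1 by -0.19 ± 0.17 (adjusted p = 0.46). LEF1, the Wnt effector, was below the filter, at 4.33 to 4.97 in epithelium and 2.96 to 4.37 in mesenchyme. Called were GATA3 in epithelium, and in mesenchyme HOXD8 (-0.81 ± 0.18, adjusted p = 0.031) and the matrix glycoprotein TNC (-1.07 ± 0.25, adjusted p = 0.036). HOXD8 showed no overlap, at 7.64 to 7.76 in epithelium and 8.08 to 9.04 in mesenchyme.

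**Figure D3:**
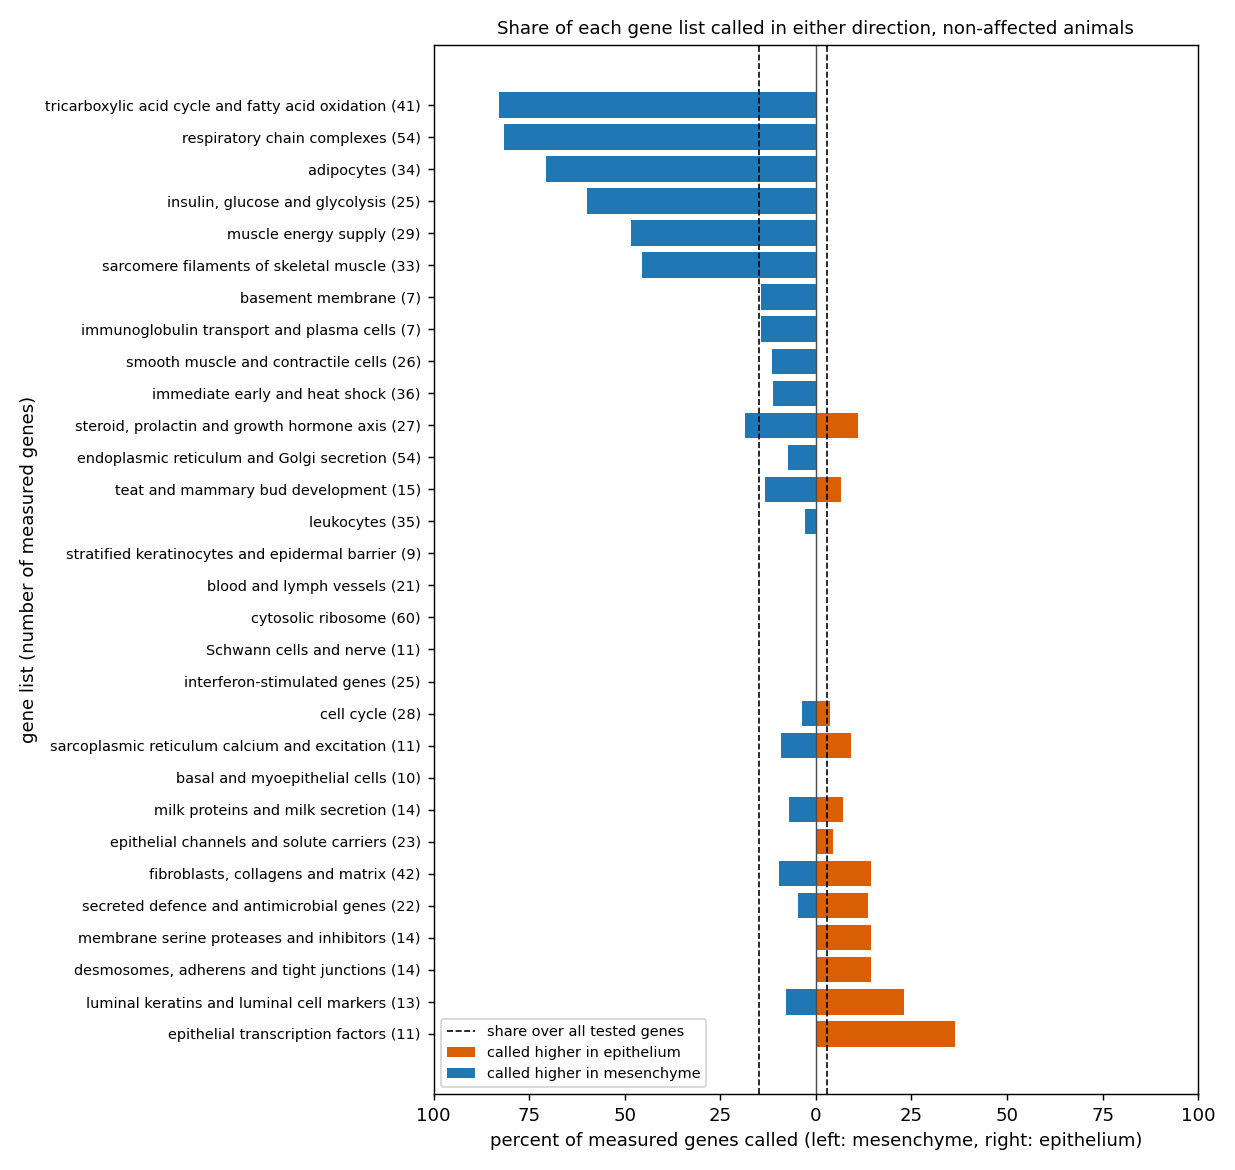
Share of the measured genes of each list (y axis) called higher in mesenchyme (bars to the left) or in epithelium (bars to the right), in percent (x axis). Dashed lines mark the shares over all tested genes, 14.8% and 2.89%. The mitochondrial, adipocyte, glycolytic, sarcomere and muscle energy lists stand far left of the line, and epithelial transcription factors and luminal genes right of it.

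Skeletal muscle genes were the most strongly mesenchymal. Of 33 measured sarcomere genes 15 (45.5%) were called higher in mesenchyme and none in epithelium, beside 14.8% of all genes, and the median difference was -3.18. At an unadjusted p below 0.05 the counts were 21 and 0. MYLPF, the regulatory light chain of fast myosin, had levels of 8.79, 1.84, 0, 9.62 and 0 in epithelium and 13.4, 11.57, 1.15, 13.34 and 12.73 in mesenchyme. The mesenchymal pieces of 4 animals were at 11.57 or above, that of animal 1040 was at 1.15, and the epithelial pieces of animals 950 and 1058 also held the transcript. The difference was -6.39 ± 1.54 (SE, n = 5, limma adjusted p = 0.038). TNNC2, the calcium-binding fast troponin, was at 9.02, 4.48, 0, 9.59 and 2.82 in epithelium and 13.39, 11.38, 3.71, 13.29 and 12.8 in mesenchyme, a difference of -5.73 ± 0.89 (adjusted p = 0.018). MYH2, a fast myosin heavy chain, TNNT3, a fast troponin T, and TTN, the giant elastic filament, differed by -6.61 ± 1.32, -6.50 ± 1.51 and -5.41 ± 1.07. KLHL41, a sarcomere assembly protein, and MYBPC1, a myosin binding protein, had smaller standard errors, with -5.95 ± 0.66 and -5.33 ± 0.62 (adjusted p = 0.014 each). All 7 of these genes lay below the 30th percentile of the array in 3 of the 5 epithelial pieces and in 1 of the 5 mesenchymal pieces, so their differences are measured against low signal there and their sizes are uncertain.

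The number of these genes that passed depended on single animals. The median over the sarcomere list was -3.78, -3.43, 0.16, -4.69 and -3.97 in the 5 animals, with animal 1040 near 0. The count of 15 became 9, 0, 16, 6 and 2 when animal 950, 957, 1040, 1058 or 1109 was left out, and 1 with no animal block. DES, the intermediate filament of both striated and smooth muscle, was lower in epithelium in every animal, animal 1040 included, at 6.44, 7.0, 6.27, 8.68 and 6.26 against 9.23, 8.75, 8.29, 12.28 and 9.98 (-2.78 ± 0.31, adjusted p = 0.014). Of 11 genes of calcium handling and excitation, SLN, which restrains the calcium pump of fast fibres, was called higher in mesenchyme (-5.24 ± 1.34). PLN, the related restrainer of slow, cardiac and smooth muscle, was called higher in epithelium (1.003 ± 0.24, adjusted p = 0.035). Each is 9.09% of the list, beside 14.8% and 2.89% of all genes. A probe set of ATP2A1, the calcium pump of fast fibres, other than its brightest was called higher in mesenchyme. It differed by -5.97 (limma adjusted p = 0.023), with a mean of only 2.82 in epithelium, so the size is uncertain. A second probe set of PLN was also called higher in epithelium, by 1.32 (limma adjusted p = 0.043). PLN was at 7.33, 6.93, 7.05, 7.75 and 7.29 in epithelium and 6.98, 5.67, 6.43, 5.81 and 6.45 in mesenchyme. RYR1, the calcium release channel, was below the filter and not tested.

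Genes that supply energy to muscle followed. Of 29 measured members 14 (48.3%, beside 14.8% of all genes) were called higher in mesenchyme, with a median of -1.87. CKM, muscle creatine kinase, and ENO3, the muscle enolase, differed by -4.78 ± 1.04 and -4.39 ± 0.78, and PYGM, the glycogen phosphorylase of muscle, by -4.10 ± 0.75 (adjusted p between 0.021 and 0.029). PPP1R1A, an inhibitor of protein phosphatase, was one of 12 genes with the lowest called differences and had no overlap, at 6.33, 4.79, 5.91, 7.92 and 4.73 in epithelium and 9.82, 8.99, 8.78, 12.47 and 10 in mesenchyme (-4.08 ± 0.33, adjusted p = 0.0097). CA3, the carbonic anhydrase of muscle and fat, was also without overlap (-2.29 ± 0.30, adjusted p = 0.017). Without the animal block 7 of the 29 passed, without animal 957 none, and without animal 1109 only 1.

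Adipocyte genes were called in 24 of 34 cases (70.6%), all higher in mesenchyme, beside 14.8% of all genes. Their median was -1.60, and all 34 had a negative difference at the brightest probe set. GPD1, which makes glycerol phosphate for triglycerides, was at 6.54, 5.06, 6.23, 8.16 and 4.97 in epithelium and 9.61, 9.5, 9.94, 11.47 and 10.24 in mesenchyme. The groups did not overlap, and the difference was -3.96 ± 0.32 (SE, adjusted p = 0.0097). ADIPOQ, the adipocyte hormone adiponectin, was at 9.27, 8.14, 10.17, 11.03 and 8.17 in epithelium and 11.82, 11.8, 12.45, 11.8 and 13.01 in mesenchyme (-2.82 ± 0.51, adjusted p = 0.022). The mesenchymal values were alike, and it was the epithelial pieces that varied, with animal 1058 highest. PPARG, the master regulator of fat cells, LPIN1, a phosphatidate phosphatase, and ACSL1, a fatty acyl-CoA ligase, differed by -1.98 ± 0.40, -2.33 ± 0.32 and -2.01 ± 0.31, each without overlap.

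In animal 1040, whose mesenchymal piece held little muscle, the adipocyte median was -1.93, and in animal 1058 it was -0.52. The other animals gave -1.38, -2.18 and -2.90 (animals 950, 957 and 1109). The count of 24 was the same without animal 1058, 22 without animal 950, and 2, 1 and 0 without animals 1040, 1109 and 957. It remained 24 without the animal block. LEP, leptin, showed how probe sets can part: its brighter probe set differed by -1.60 without passing, and a second one by -3.47 ± 0.69 (adjusted p = 0.025).

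Mitochondrial genes were higher in mesenchyme almost throughout. Of 41 genes of the tricarboxylic acid cycle and fatty acid oxidation 34 (82.9%) were called, and of 54 respiratory chain genes 44 (81.5%), all higher in mesenchyme. The share over all genes was 14.8%. At the brightest probe set every one of the 41 and the 54 genes had a negative difference, with medians of -0.97 and -0.79. Another probe set of SDHB, a subunit of succinate dehydrogenase, differed by 0.66 without passing (limma adjusted p = 0.166). SUCLA2, a subunit of succinyl-CoA ligase, was at 7.82, 7.28, 7.58, 8.21 and 7.66 in epithelium and 9.62, 8.8, 8.6, 9.66 and 9.4 in mesenchyme (-1.50 ± 0.16, adjusted p = 0.011). ETFDH, which passes electrons from fatty acid oxidation to the respiratory chain, and DLAT, the acetyltransferase of pyruvate dehydrogenase, differed by -1.61 ± 0.19 and -1.19 ± 0.13. NDUFA9 and NDUFAB1, subunits of complex I, differed by -1.47 ± 0.15 and -1.17 ± 0.13. ATP5A1, the alpha subunit of ATP synthase, was at 10.61, 10.55, 10.54, 10.62 and 10.52 in epithelium and 11.43, 11.57, 11.66, 11.73 and 11.56 in mesenchyme (-1.02 ± 0.12, adjusted p = 0.016). Its 5 epithelial values ran from 10.52 to 10.62, the mesenchymal ones from 11.43 to 11.73, and both sets were narrow beside the difference.

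The medians of both mitochondrial lists were negative in every animal. The median of the tricarboxylic acid cycle list was -0.83, -0.91, -1.01, -0.86 and -1.32 in animals 950, 957, 1040, 1058 and 1109, and that of the respiratory chain list was -0.66, -0.52, -0.77, -1.12 and -0.89. The list means did not overlap between tissues: 8.04 to 8.45 in epithelium against 9.02 to 9.48 in mesenchyme for the first list, and 8.97 to 9.18 against 9.67 to 10.26 for the second. With no animal block 31 and 39 genes passed. Without animals 950 and 1058 in turn the counts were 31 and 32 for the first list and 38 and 35 for the second. Without animal 1040 they were 8 and 5, without animal 1109 2 and 1, and without animal 957 none. With quantile normalization 30 and 22 passed, and the respiratory chain median was -0.45. The median of the adipocyte list was also negative in every animal, and the part of adipocyte and muscle genes in the mitochondrial difference was not tested.

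Glucose metabolism went the same way. Of 25 genes of insulin action, glycolysis and the pentose phosphate path 15 were called higher in mesenchyme. This was 60%, beside 14.8% of all genes, and the median was -1.34. PGK1, phosphoglycerate kinase, was at 9.98, 9.91, 9.76, 10.26 and 9.87 in epithelium and 11.63, 11.03, 10.97, 13.03 and 11.67 in mesenchyme (-1.71 ± 0.24, adjusted p = 0.017). LDHA, lactate dehydrogenase A, and PDK4, the kinase that shuts pyruvate dehydrogenase, differed by -1.90 ± 0.32 and -1.45 ± 0.19. GAPDH, often used as a reference gene, was itself called higher in mesenchyme, by -0.65, and its 3 other tested probe sets were called at -1.15, -1.71 and -2.26. The glucose transporters SLC2A1 and SLC2A3 had differences of 0.27 and 0.29 and did not pass. SLC2A4, a glucose transporter in the adipocyte list, had a negative difference at its brightest probe set. Its other probe sets differed by -0.05 (limma adjusted p = 0.82) and by -2.69 (not tested). The count of 15 called genes fell to 10 without the animal block, to 5 without animal 1040 and to 0 without animal 957 or 1109.

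**Figure D4:**
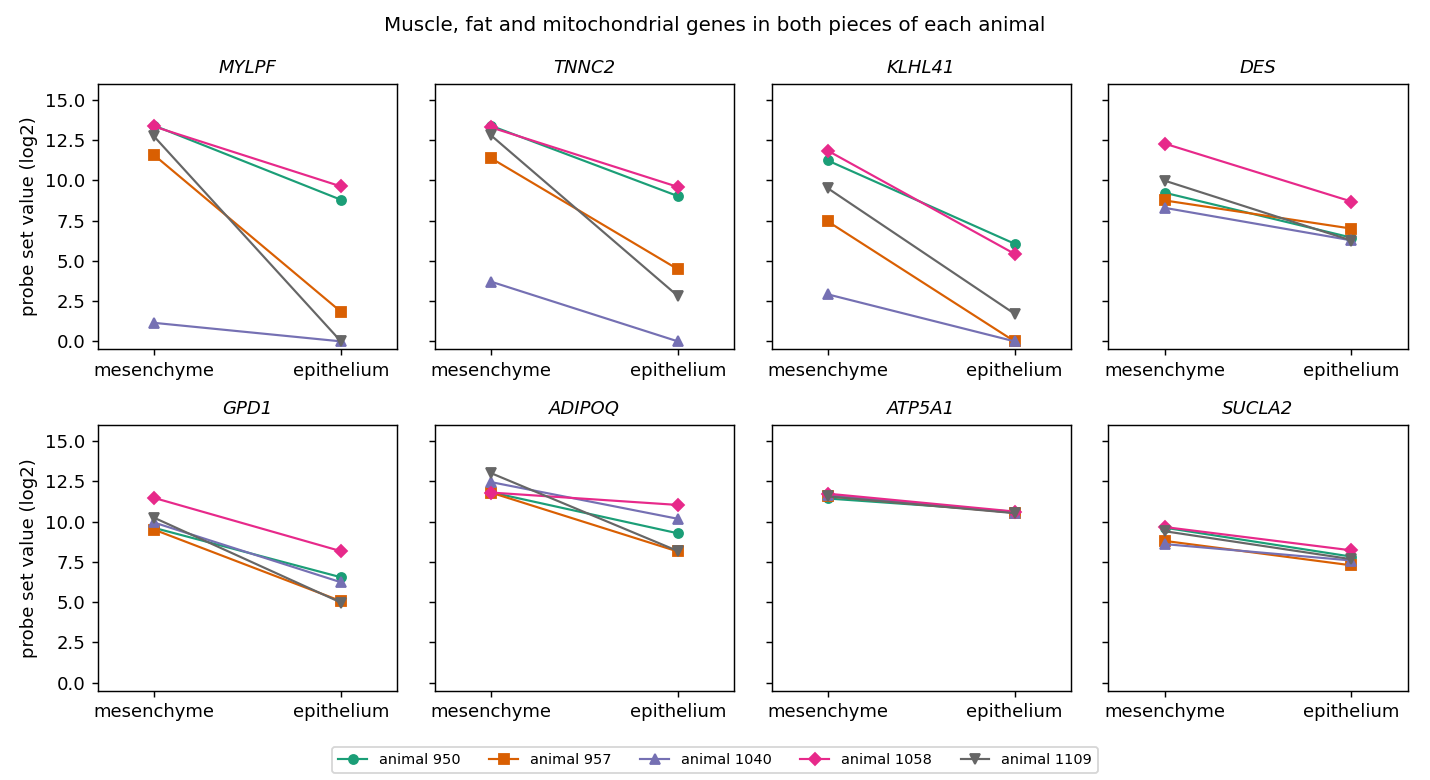
Levels (log2, y axis) of 8 genes in the mesenchymal and epithelial piece of each of the 5 non-affected animals, joined by a line per animal. MYLPF, TNNC2 and KLHL41 are low in both pieces of animal 1040, ADIPOQ and GPD1 are high in mesenchyme of every animal, and ATP5A1 falls by about the same amount in all 5 animals.

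Matrix genes were called in both directions. Of 42 fibroblast and matrix genes, 6 (14.3%, beside 2.89% of all genes) were called higher in epithelium and 4 (9.52%, beside 14.8%) higher in mesenchyme, with a median of 0.23, and 16 and 8 had an unadjusted p below 0.05. POSTN, a matricellular protein, was at 12.26, 11.7, 11.8, 11.5 and 12.14 in epithelium and 11.71, 11.72, 9.37, 9.76 and 10.27 in mesenchyme (1.31 ± 0.35, adjusted p = 0.047). ASPN, a small leucine-rich proteoglycan, differed by 1.34 ± 0.37 (adjusted p = 0.0499), and BGN, FBLN1, TWIST2 and CYR61 by 0.60 to 0.68. These 6 were named after their values were seen. COL15A1, a collagen of vessel and fat basement membranes, TNXB, tenascin X, and MFAP5, a microfibril protein, were called higher in mesenchyme, by -1.22 ± 0.24, -0.82 ± 0.18 and -0.75 ± 0.16. COL1A2 and COL3A1, fibrillar collagens, had differences of 0.71 ± 0.24 and 0.56 ± 0.17, each in 5 of 5 animals, without passing (adjusted p = 0.085 and 0.062). Decorin (DCN) and vimentin (VIM) were level, at 0.16 and -0.11. With quantile normalization 21 of the 42 were called higher in epithelium and 2 higher in mesenchyme. With no animal block the counts were 0 and 2, and without animal 957, 1040 or 1109 no gene passed in either direction.

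Smooth muscle, vessels, nerves and leukocytes gave few calls. Of 26 smooth muscle genes 3 (11.5%, below the 14.8% of all genes) were called higher in mesenchyme, DES, PDLIM3 and TPM2. Skeletal muscle also expresses all 3, and the list median was 0.12. TPM2 has probe sets that disagree, with differences from -4.41 to 1.07. LAMC1, a laminin chain, was the 1 called of 7 basement membrane genes (-0.61 ± 0.17, adjusted p = 0.049), 14.3% and near the share of all genes. None of 21 vessel genes (median -0.26) and none of 11 Schwann cell and nerve genes (-0.30) passed, with 2 and 3 at an unadjusted limma p below 0.05. PECAM1, the endothelial adhesion molecule, differed by -0.32 ± 0.27 (adjusted p = 0.42), and by 0.11 with quantile normalization. Of 35 leukocyte genes 1 (2.86%, below the share of all genes) was called, CXCR4, a chemokine receptor (-0.61 ± 0.16, adjusted p = 0.045). PTPRC, the pan-leukocyte CD45, was below the filter.

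Housekeeping and stress lists framed these values. None of 60 ribosomal protein genes passed at the brightest probe set, and none had an unadjusted limma p below 0.05 there. Their median was 0.03, against -0.14 over all genes. Another probe set of FAU, a ribosomal protein gene, was called higher in epithelium, by 0.59 (limma adjusted p = 0.034). Further tested probe sets of FAU differed by -0.39 and -0.33 without passing. Of 28 cell cycle genes, CCND2, a D-type cyclin, was called higher in epithelium (1.07 ± 0.15, adjusted p = 0.017) and CDKN1A, the inhibitor p21, higher in mesenchyme (-1.67 ± 0.26, adjusted p = 0.018). Each is 3.57% of the list, beside 2.89% and 14.8% of all genes. CCND2 was at 7.98, 8.55, 8.35, 9.04 and 8.43 in epithelium and 7.25, 7.22, 7.09, 7.77 and 7.63 in mesenchyme. Of 36 immediate early and heat shock genes 4 (11.1%, below the 14.8% of all genes) were called higher in mesenchyme and none in epithelium. Among them were the small heat shock proteins CRYAB (-1.30 ± 0.18) and HSPB1 (-0.65 ± 0.13) and the growth arrest gene GADD45A (-1.98 ± 0.35). A probe set of EGR1, an immediate early gene, other than its brightest was called higher in epithelium, by 1.83 (limma adjusted p = 0.047). None of 25 interferon-stimulated genes passed at the brightest probe set, with 5 at an unadjusted p below 0.05. Other probe sets of MX2 (-0.743) and TAP1 (-0.865) were called higher in mesenchyme.

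The spread between animals differed widely between genes. Among called genes with a difference beyond 1, the smallest spread between animals was that of WDR18, a ribosome biogenesis factor (-1.04, SD of the 5 differences 0.10, with a second probe set at -0.14 that did not pass), ATP5A1 (0.12), PSMC2, an ATPase of the proteasome (-1.08, SD 0.17), NDUFAB1 (0.18) and DLAT (0.19). The largest spread was in the muscle genes MYLPF, TNNT3, SLN, MYH2 and MYL1, with SD from 3.43 to 4.72.

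The normal teats of the 5 affected animals were compared in the same way. Of 17141 probe sets, 278 (1.62%) were called higher in epithelium and 1102 (6.43%) higher in mesenchyme. Of the 1661 probe sets called higher in mesenchyme in non-affected animals and tested in both, 1657 had the same sign in affected animals and 831 were called, and of 754 called higher in epithelium 749 had the same sign and 164 were called. None was called in the opposite direction. For reference, 84.6% of all 16740 probe sets tested in both had the same sign. These calls in common were 49.5% of the mesenchymal and 20.4% of the epithelial calls in non-affected animals, and 75.4% and 59.0% of those in affected animals. The 24 adipocyte, 34 tricarboxylic acid cycle, 44 respiratory chain and 15 sarcomere calls stood beside 24, 26, 23 and 24 in affected animals. In non-affected and affected animals, GPD1 had -3.96 and -3.68, ADIPOQ -2.82 and -2.55, NPG4 4.07 and 5.29, MYLPF -6.39 and -8.65, MYL1 -4.88 and -7.50, and CLDN11 2.24 and 0.91. MMP7 had 4.63 and 4.18 but did not pass in affected animals (limma adjusted p = 0.060), where animals 963 and 964 differed by 0.42 and 0.02. No luminal gene was called by limma in affected animals, where the list median was 1.86 and 9 of 13 were higher and 1 lower in epithelium at an unadjusted p below 0.05.

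No tissue difference was shown to depend on the status of the animal. Of 17138 probe sets 0 (0%) passed the limma test of the difference between both tissue differences, with 184 at an unadjusted p below 0.05. The smallest p belonged to SLC26A6, an anion exchanger (0.49 in non-affected and -0.66 in affected animals), PMM1, a phosphomannomutase (0.64 and 0.01), and AHSG, the plasma protein fetuin A (-0.84 and 0.17). Of these, PMM1 was called in non-affected animals (adjusted p = 0.028).

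**Figure D5:**
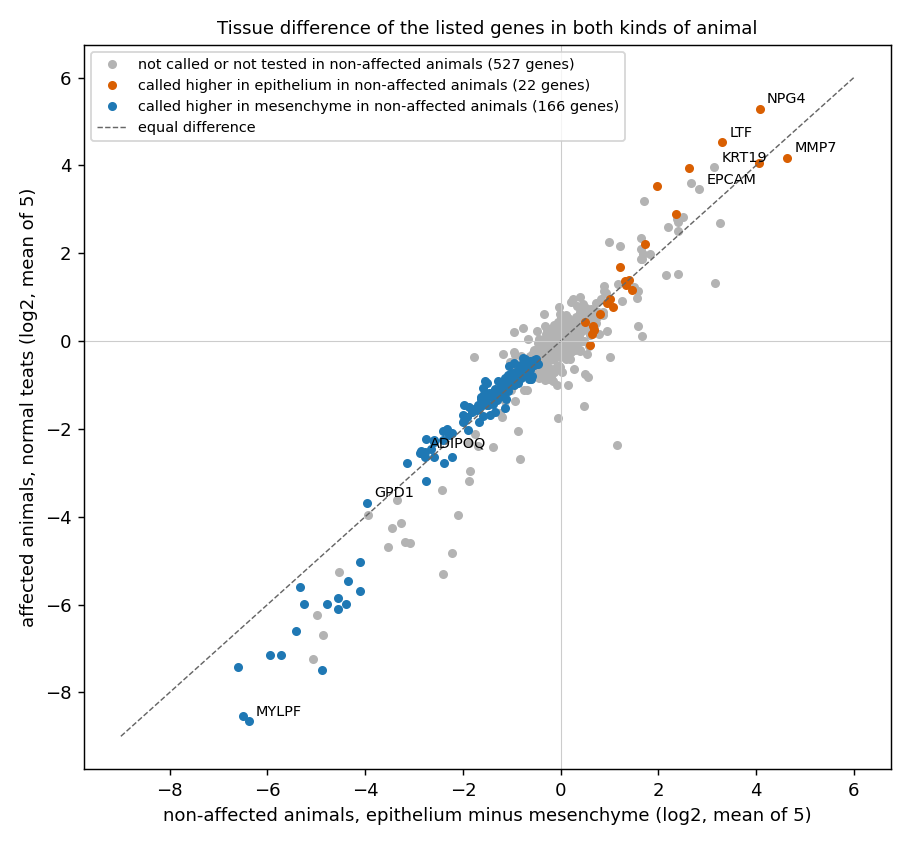
Tissue difference (epithelium minus mesenchyme, log2, mean of 5 animals) of the 715 listed genes in non-affected animals (x axis) and in normal teats of affected animals (y axis). Points called in non-affected animals are coloured. All 166 genes called higher in mesenchyme lie below 0 in affected animals, and 21 of 22 called higher in epithelium lie above 0, CYR61 being the exception.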

How the data were processed

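The authors deposited probe set summaries, taken here as log2 values from their range, since no label states the base. GCOS 1.1.1 and PLIER are named per the submitters' processing notes, with no role given, and any scaling between arrays is not given in the sources used here. Values were used as deposited. Of 24123 probe sets, 124 controls were left out, and a probe set was named only with 1 symbol (10099, covering 6765 symbols; 198 have several and 13826 none here). Tests used limma 3.58.1 in R 4.3.3 (lmFit, eBayes) on 10 arrays with the animal as a block, since both pieces come from 1 animal. After removal of group means, own pieces correlated with r of 0.71, 0.43, 0.30, 0.37 and 0.00 in animals 950, 957, 1040, 1058 and 1109. The difference between kinds of animal was tested on within-animal differences. The fit was tested on simulated data. Genes were named by rule: the 12 highest and 12 lowest called with 1 sign in all 5 animals, 3 called members per list with the smallest p, a fixed set of markers, 5 called genes each with the largest and smallest spread, and 3 with the smallest p between kinds of animal. List members that did not pass, the 6 matrix genes called higher in epithelium, and genes of the closing section outside the rule were chosen after their values were seen. Lists share some members. The comparison and all lists were chosen with earlier results of these data known.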

Additional observations from a re-analysis of the deposited data

Results flagged for a closer look

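Of 252 groups of 5 arrays checked (96 named genes and 30 list means in each tissue), 22 held 1 array that stood apart from the other 4 by more than 0.71 of the group's range. Chance alone flags about 1 in 20 groups of independent, normally distributed values. The groups here share arrays, several flags are muscle genes on 1 array, and some genes were named for their large spread. The count of flags can therefore not be judged against that rate.

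Among mesenchymal arrays, that of animal 1040 was low for the muscle genes MYLPF (1.15, others 11.57 to 13.40), TNNC2 (3.71, others 11.38 to 13.39), MYL1 (3.51, others 11.96 to 13.59), CKM (4.93, others 11.85 to 13.45), ENO3 (3.84, others 10.78 to 13.14), SLN (2.43, others 10.05 to 13.09) and TNNT3 (0.00, others 10.24 to 13.48). The mesenchymal array of animal 1058 stood apart for CRISP2 (0.00), CA3 (12.16), GADD45A (8.18), and the mean levels of basal and myoepithelial genes (6.13, others 7.08 to 7.42) and of ribosomal protein genes (11.88, others 12.18 to 12.30). That of animal 950 was low for TNXB (9.33) and HSPB1 (10.87), and that of animal 1109 was high for CDKN1A (10.17).

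Among epithelial arrays, that of animal 1058 was low for DSP (7.64, others 9.10 to 9.24) and the mean of defence genes (5.59, others 6.16 to 6.25). It was high for CDKN1A (8.17) and for the means of tricarboxylic acid cycle and fatty acid oxidation genes (8.45, others 8.04 to 8.11) and of vessel genes (7.79, others 7.30 to 7.39). That of animal 950 was low for FCGRT (9.27) and high for SAR1B (8.99).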

How the results depend on the processing

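Counts are probe sets higher in epithelium and in mesenchyme, 804 and 1678 as reported. The no replicate block fit gave 321 and 1096, pairing being by animal, and the random replicate block 1273 and 2441. The random replicate block over all 30 arrays gave 1160 and 2704, and quantile normalization 1925 and 1315. Leaving out 1 animal gave 0 to 1172 and 1 to 1217, and leaving out animals 950 and 957 together 720 and 271. No probe set passed with no filter (0 and 0, smallest adjusted p 0.062, 6453 at an unadjusted p below 0.05) or with no moderation of the variance, as in a plain ANOVA (0 and 0, smallest adjusted p 0.065, 4906 at an unadjusted p below 0.05). All calls therefore rest on limma's shared variance, with 4 residual degrees of freedom. The filter at the 50th percentile, a floor at the 30th percentile, median centring and a variance trend stayed within 1.5 times both counts. A fit over all 20 arrays of normal teats, chosen after seeing the data, gave 3097 and 4479, among them 2447 of the 2482 called here. Affected animals had no change beyond 1.5 times without the block, and the interaction gave 0 in every setting. Signs turned for PTH1R without animal 957 (0.04), 1040 (0.11; range without 1 animal -0.45 to 0.11) or both 950 and 957 (0), for PECAM1 with quantile normalization (0.11) and for SLC26A6 over 20 arrays (-0.09). The causes were not tested.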

Other observations

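Gene families taken by the start of their symbol, after first results were seen, gave further calls in mesenchyme. Of 37 proteasome subunits 27 were called higher in mesenchyme (median -0.61, 36 of 37 negative), with PSMC2 at -1.08 and PSMB4 at -0.67. Of 58 mitochondrial ribosomal proteins 29 were called (median -0.49), of 21 mitochondrial carriers 10 (median -0.64), of 18 import translocases 6 (median -0.43) and of 24 ubiquitin-conjugating enzymes 9 (median -0.44). All these calls were higher in mesenchyme, beside 14.8% of all tested genes. In affected animals 5 proteasome subunits, 8 mitochondrial ribosomal proteins, 7 carriers, 3 translocases and 4 ubiquitin-conjugating enzymes were called. With quantile normalization the proteasome count was 10, without animal 950 15 and without animal 1058 14. Without animal 957 all 5 families gave 0, without animal 1109 0 or 1 and without animal 1040 1 to 4. Translation initiation factors gave 1 call in each direction of 36, beside 2.89% of all tested genes in epithelium and 14.8% in mesenchyme. Their median was -0.17, near the -0.14 of all genes.

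Of 6 measured HOX genes, which record position along the body axis, HOXA9 (-2.27) and HOXD8 (-0.81) were called higher in mesenchyme, beside 14.8% of all tested genes. Neither passed without animal 957, 1040 or 1109. Of the 804 probe sets called higher in epithelium 256 carry 1 symbol, against 1123 of 1678 called higher in mesenchyme, so most of the epithelial side is unnamed here.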
